A study of Mus musculus with 9 samples.

Results

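Blood is kept fluid inside a vessel and is made to clot at a wound by proteins that come from more than one organ. Most clotting enzymes are made in liver and circulate, whereas the cells of the vessel wall and the macrophages around it make the proteins that catch platelets, start the cascade, hold it back and dissolve the clot. The 9 genes followed here were listed by symbol: Vwf, F3, F8, F13a1, Thbd, Procr, Tfpi, Plat and Plau, 9 of the 22851 genes in the count matrix. The rule names symbols and uses no measured value. All 9 were matched to an Ensembl identifier and all 9 passed the low-count filter in every comparison.

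The libraries were mRNA-seq of mouse myocardium, 3 in each of 3 groups of mice, C57BL/6 in the labels and C57BL/6J young adult males in the study's methods. CK was the normal control group, injected with citrate buffer. DCM was a streptozotocin model of type 1 diabetes, in which the toxin destroys the insulin-producing cells of the pancreas, kept for 12 weeks. SPM received the polyamine spermine before and during a diabetic period of 12 weeks, so no group had spermine without diabetes. The labels do not say whether a library is 1 heart or a pool, and the study's methods speak in places of single mice and for the RNA-seq of several hearts mixed into each sample, so the p-values measure the spread between these libraries, which may be partly technical.

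Each library held 29901300 to 39718680 counts. The mitochondrial share was 13.72% to 16.15% in CK, 15.47% to 18.92% in DCM, and 21.01% to 21.09% across SPM. The markers of cardiomyocytes, led by Myh6, Myl2 and Tnnt2, summed to 33508.8 to 45433.2 normalized CPM (CPM after scaling the library totals by edgeR's TMM factors, the scale of every marker sum here), while those of retina, which the labels' extraction text mentions, summed to at most 1.56. SPM replicate 2 stood apart: it lay between SPM replicates 1 and 3 for 66.6% of 14529 genes against 15.7% to 39.8% for the other 8 libraries. Of 2656 genes with no count in SPM replicates 1 and 3, 30 had a count in SPM replicate 2, against 485 to 1162 in the same check of the other libraries. Whether it is independent of replicates 1 and 3 was not tested, and if it is not, the SPM spread and the p-values given with n = 3 are too small. SPM replicate 2 was therefore also left out of the SPM comparisons of the genes followed here and of ratios formed with them. Not every such value is printed. The marker lists and the other named genes are given with every SPM library, so whether their SPM calls hold without SPM replicate 2 is not shown. The log2 fold changes of all genes in SPM compared to DCM ran with the GC content of the transcript (Spearman rho = -0.502 over 14484 genes, which are not independent), and in SPM compared to CK rho was -0.366. DCM compared to CK gave 0.0602. For the genes followed here, each difference between groups is therefore also given after a GC correction where that alters the call. The marker lists, the other named genes and the ratios are given without this correction, so whether those calls hold with it is not shown.

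The genes were measured on 2 scales. Levels of different genes were compared as FPKM, a fragment count scaled by transcript length and library total, because only this scale is per length. A single gene was followed across libraries as normalized CPM. A gene was called when its Benjamini-Hochberg adjusted p over all genes was below 0.05 by edgeR's quasi-likelihood test and its fold change was at least 1.5, which is 0.58 on the log2 scale.

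RefSeq windows upstream of the transcription start were on hand for 5 of the 9 genes. The upstream sequence of the 3 of these that passed the adjusted p in SPM compared to DCM is printed here, 5′ to 3′. Bases inside the GENCODE gene model are left out. Plat, which was lower in SPM, also passed but had no window. With the GC correction F3, Tfpi and F13a1 no longer passed (adjusted p = 0.0967, 0.883 and 0.0711). Without SPM replicate 2 none of the 9 genes passed. Capitals mark every match, on either strand, to 4 motifs: TATAA, the AP-1 site TGANTCA, the GC box GGGCGG and the purine-rich GAGGAA. On GRCm38.p6 the windows are chr3:121723287-121723536 on the plus strand for F3, chr2:84476776-84477009 on the minus strand for Tfpi and chr13:37050245-37050494 on the minus strand for F13a1.
F3: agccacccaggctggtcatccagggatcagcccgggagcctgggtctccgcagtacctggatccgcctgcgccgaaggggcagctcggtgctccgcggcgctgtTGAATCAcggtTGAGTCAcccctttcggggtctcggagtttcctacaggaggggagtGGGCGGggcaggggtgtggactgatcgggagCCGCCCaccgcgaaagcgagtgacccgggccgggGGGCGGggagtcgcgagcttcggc
Tfpi: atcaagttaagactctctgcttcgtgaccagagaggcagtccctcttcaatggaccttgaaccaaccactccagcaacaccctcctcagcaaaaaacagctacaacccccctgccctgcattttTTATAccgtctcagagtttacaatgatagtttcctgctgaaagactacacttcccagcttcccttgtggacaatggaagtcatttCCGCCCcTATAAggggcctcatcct
F13a1: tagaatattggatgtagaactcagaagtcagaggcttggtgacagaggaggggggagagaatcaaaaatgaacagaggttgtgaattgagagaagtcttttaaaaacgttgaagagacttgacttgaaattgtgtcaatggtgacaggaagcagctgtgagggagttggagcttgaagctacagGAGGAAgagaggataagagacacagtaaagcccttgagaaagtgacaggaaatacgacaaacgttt
The F3 window held AP-1 matches at 146 to 140 and 135 to 129 bases before the start and 3 GC boxes. Its GC content was 70.0% and it held 24 CpG, against medians of 52.4% and 6.0 over 32851 windows of the same 250 bases. The Tfpi window held TATAA at 34 to 30 bases before the start, a second one on the other strand at 126 to 122, and a GC box at 41 to 36. The F13a1 window held a single GAGGAA at 66 to 61. Of all windows, 6.75% held TGANTCA, 32.7% GGGCGG, 22.8% TATAA and 23.3% GAGGAA. RefSeq gives 2 starts each for Tfpi and F13a1, and the windows above are those of the first. The window of the second Tfpi start held a GC box at 159 to 154 and GAGGAA on the other strand at 40 to 35, and that of the second F13a1 start held no match, so which motifs the genes share depends on the start. A match is a description of letters only.

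Vwf was the most abundant of the 9 per length and F8, the clotting factor whose protein circulates bound to that of Vwf, the least. Mean FPKM over the 9 libraries was 42.4 for Vwf (range 29.7 to 63.0), 26.4 for Thbd (21.2 to 36.4), 19.1 for Tfpi (14.2 to 23.2), 12.2 for Plat (10.1 to 14.1), 11.7 for F13a1 (9.09 to 18.6) and 10.6 for F3 (8.76 to 12.7). Plau at 2.68 (1.35 to 4.44) and Procr at 1.91 (1.28 to 2.5) followed, and F8 was at 0.0944 (0.0468 to 0.129). Tfpi was above Plat, F3 above Plau and Procr above F8 in 9 of 9 libraries. The neighbours Plat and F13a1 kept their order in 6 of 9 libraries and were reversed in all 3 SPM libraries, and F13a1 was above F3 in 7 of 9. Vwf was above Thbd in 8 of 9, the exception being a CK library, and Thbd was above Tfpi in 7 of 9 and in 1 of 3 SPM libraries.

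**Figure D1:**
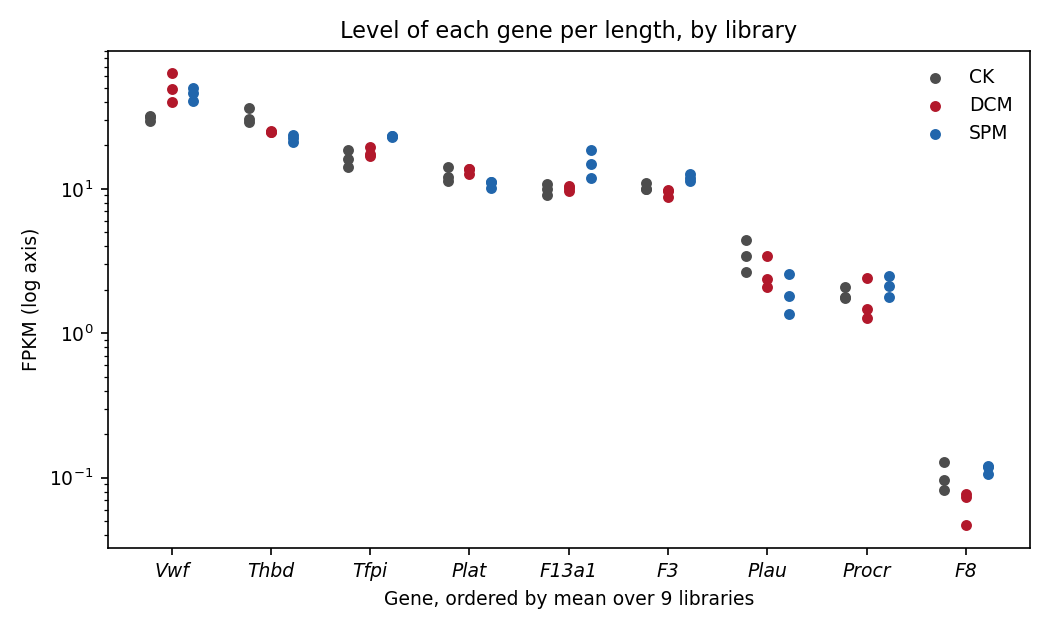
FPKM of each gene on a log axis, 1 point per library, with CK in grey, DCM in red and SPM in blue and genes ordered by their mean over 9 libraries. Vwf lies at the top in all but 1 library, a CK library in which Thbd was higher, and F8 lies below 0.13 FPKM in every library.

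In DCM compared to CK 1 of the 9 genes was called, Vwf, against a background of 4.34% of 14402 genes tested, or 2.03% counting those higher. By the adjusted p alone it was again 1 of 9, against 10.4%. The comparison of SPM with DCM called 1 of 9, F13a1 (background 3.59% of 14493, 2.70% higher), and 4 passed the adjusted p alone (background 16.6%). The comparison of SPM with CK called 3 of 9, Vwf, F13a1 and Tfpi (background 9.21% of 14574, 5.08% higher), and 5 passed the adjusted p alone (background 27.4%). All of the called genes were higher in the group named first. Groups did not overlap for 3, 6 and 5 of the 9 genes in the 3 comparisons, against 29.3%, 39.2% and 46.3% of all genes tested. The median log2 fold change of the 9 was -0.03, 0.32 and 0.29, beside medians over all genes of 0.00, 0.01 and 0.00. DCM enters 2 of these comparisons and so do CK and SPM, so their values are set side by side and are not independent of each other.

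**Figure D2:**
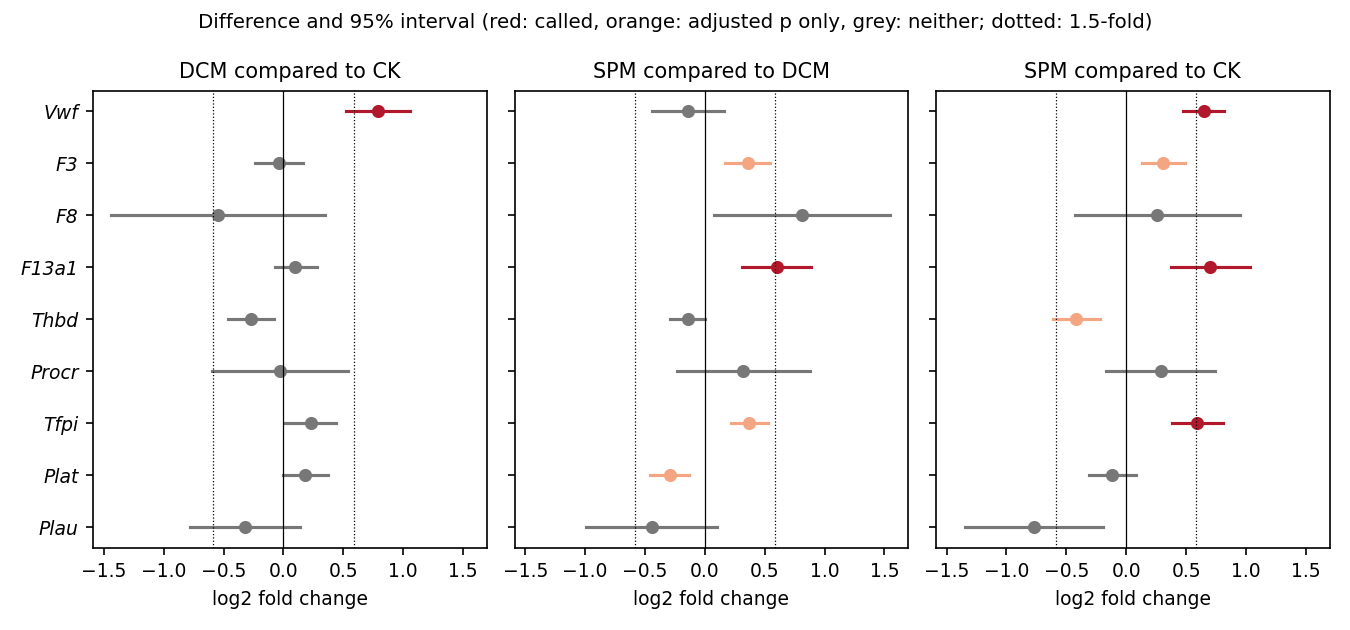
Log2 fold change of the 9 genes with its 95% interval in each comparison, from edgeR's quasi-likelihood fit, with called genes in red, genes past the adjusted p alone in orange and the rest in grey, and dotted lines at 1.5-fold. Vwf is the single called gene in DCM compared to CK and F13a1 the single one in SPM compared to DCM, and the widest intervals belong to F8.

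Vwf (ENSMUSG00000001930, chr6:125546774-125686679, plus strand, GRCm38) encodes von Willebrand factor, the large multimer that endothelial cells store and release and that tethers platelets to exposed collagen. Its normalized CPM was 264.5, 248.5 and 274.6 in CK replicates 1 to 3. DCM gave 555.0, 447.9 and 359.1, and SPM 371.3, 416.6 and 449.0. Every diabetic library, with or without spermine, was above every control library, and DCM and SPM overlapped. The means were 262.5 ± 13.1, 454.0 ± 98.1 and 412.3 ± 39.0 (SD, n = 3). Vwf was 1.73-fold higher in DCM than in CK (95% interval 1.43 to 2.09, log2 fold change 0.79, SE 0.13, adjusted p = 0.00187) and 1.56-fold higher in SPM than in CK (1.39 to 1.77, adjusted p = 0.00129). SPM compared to DCM gave a log2 fold change of -0.14 with an interval of -0.44 to 0.16 (adjusted p = 0.5). DCM replicate 1 held the highest value. Without it the log2 fold change in DCM compared to CK was 0.63 (adjusted p = 0.00354). Without SPM replicate 2 the call in SPM compared to CK held at 0.64 (adjusted p = 0.00913), and it was lost on fold size without SPM replicate 3, at 0.58, just under the limit.

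The general markers of endothelium did not rise with Vwf. In bulk tissue fewer cells of a type and less RNA per cell cannot be told apart. The 13 endothelial markers, led by Cdh5, Pecam1 and Eng, summed to 2736.8 to 3152.8 CPM in CK, 2669.7 to 2926.8 in DCM, and 2444.8 to 2662.5 across SPM. Of these 13, 3 passed the adjusted p in DCM compared to CK, all of them lower in DCM. The ratio of Vwf to that sum within a library was 0.0839, 0.0889 and 0.1 in CK. DCM gave 0.199, 0.153 and 0.134, and SPM 0.152, 0.163 and 0.169. On the log2 scale the ratio was 0.82 higher in DCM and 0.83 higher in SPM than in CK, with no overlap in either, and 0.01 apart between SPM and DCM. An exact two-sided permutation test of 3 against 3 libraries cannot give a p below 0.1, which is the value both non-overlapping comparisons had, and the adjusted value over the 48 ratio tests was 0.185.

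Cells other than general endothelium also make Vwf or carry markers that moved. Platelets and megakaryocytes contain it, and their 11 markers, led by Pf4, Itga2b and Gp1ba, summed to 33.6 to 42.8 CPM in CK, 26.0 to 43.2 in DCM, and 33.4 to 38.2 across SPM. Their median log2 fold change was -0.27 in DCM compared to CK (8 tested), 0.19 in SPM compared to DCM (7 tested) and -0.17 in SPM compared to CK (8 tested). In DCM compared to CK 7 of the 8 had negative values and none was called. Gp9, named after its values were seen, was called lower in SPM compared to CK. The endocardial markers, led by Cgnl1, Npr3 and Cytl1, summed to 219.2 to 307.6, 276.3 to 367.2 and 266.3 to 389.4 normalized CPM in CK, DCM and SPM, and these ranges overlap. All 5 had positive log2 fold changes in DCM compared to CK, and 1 passed the adjusted p there (Npr3, 0.53, adjusted p = 0.0416). In SPM compared to CK 2 of the 5 were called higher, Npr3 at 1.06 (adjusted p = 0.00901) and Tmem108 at 0.63 (adjusted p = 0.00315, named after its values were seen). The 8 arterial and venous endothelial markers, led by Efnb2, Sox17 and Gja4, summed to 135.2 to 139.8 CPM in CK, below DCM at 143.1 to 179.4 and SPM at 141.5 to 142.6 without overlap. None of the 7 tested was called in DCM compared to CK by edgeR or DESeq2, with 2 at an unadjusted p below 0.05. In SPM compared to CK Bmx was called higher at 0.59 (adjusted p = 0.0463) and Hey1 lower at -0.67 (adjusted p = 0.00198), both named after their values were seen. The 5 lymphatic endothelial markers measured, led by Prox1, Flt4 and Lyve1, summed to 160.9 to 180.0 CPM in CK, 209.6 to 225.0 in DCM, and 231.7 to 253.5 across SPM. Of these, 3 were called higher in DCM compared to CK and 3 in SPM compared to CK, namely Lyve1, Reln and Mmrn1, the last 2 named after their values were seen. The part of the endocardial, arterial and venous, and lymphatic cells in the result for Vwf was not tested. Of the lymphatic list, Prox1 and Flt4 were not called. In DCM compared to CK they were at 0.03 (adjusted p = 0.895) and 0.15 (adjusted p = 0.295). In SPM compared to CK they were at 0.17 (adjusted p = 0.252) and 0.11 (adjusted p = 0.297). Which cells these transcripts came from was not tested.

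F8 (ENSMUSG00000031196, chrX:75172715-75382615, minus strand) encodes coagulation factor VIII, the cofactor that its carrier von Willebrand factor protects in plasma. Unlike most clotting factors it is made largely by endothelial cells. Only 16 to 43 counts per library were assigned to it. The counts were 24, 43 and 28 in CK, 30, 22 and 16 in DCM and 39, 33 and 37 in SPM. As normalized CPM the 3 DCM libraries, at 0.754, 0.745 and 0.469, lay just below CK at 0.765 to 1.2 and below SPM at 1.06 to 1.2. Neither difference passed the test: the log2 fold change was -0.55 in DCM compared to CK (interval -1.44 to 0.35, adjusted p = 0.461) and 0.81 in SPM compared to DCM (0.08 to 1.55, adjusted p = 0.112). F8 has the lowest GC content of the 9 transcripts, 39.0%, and after the GC correction the second of these was 0.44. The F8 gene overlaps Fundc2 on the opposite strand, with no shared exonic base.

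The ratio of Vwf to F8, carrier to cargo, was 345.7, 207.2 and 302.4 in CK. DCM gave 736.3, 601.4 and 765.9, and SPM 309.3, 392.5 and 372.9. DCM stood above both other groups with no overlap, by 1.32 on the log2 scale against CK, and SPM was lower than DCM by 0.97 (exact permutation p = 0.1 for each, the smallest possible, 0.185 adjusted). SPM and CK overlapped. These ratios are not corrected for GC, and the Vwf and F8 transcripts lie at opposite ends of GC content among the 9. With the correction the log2 fold changes of Vwf and F8 in SPM compared to DCM went from -0.14 and 0.81 to 0.00 and 0.44. In DCM compared to CK they went from 0.79 and -0.55 to 0.79 and -0.49, nearly unchanged.

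**Figure D3:**
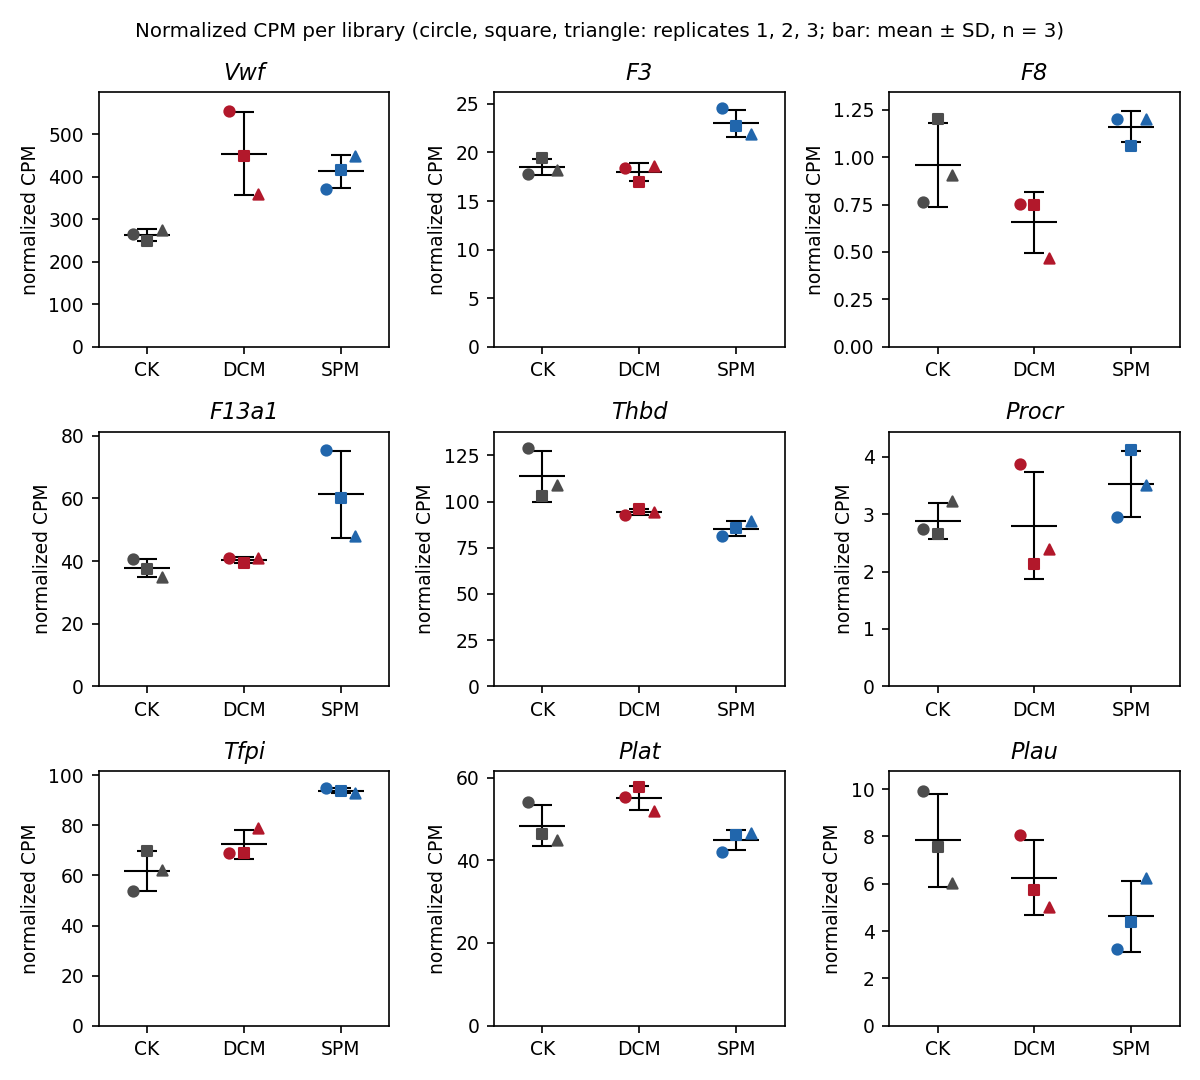
Normalized CPM of each gene in each library on axes that start at 0, with circle, square and triangle for replicates 1, 2 and 3 and bars for the mean ± SD (n = 3). Vwf is higher in all DCM and SPM libraries than in CK, while F13a1, Tfpi and F3 are higher in all SPM libraries than in DCM and CK.

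F3 and Tfpi govern the first step of coagulation. F3 (ENSMUSG00000028128, chr3:121723537-121735048, plus strand) encodes tissue factor, the membrane receptor of factor VII that starts the cascade and that cardiomyocytes and cells around vessels carry. Normalized CPM of F3 was 17.8, 19.4 and 18.2 in CK and 18.4, 17.0 and 18.6 in DCM. It was 24.6, 22.7 and 21.9 in SPM, above all 6 other libraries. DCM and CK overlapped (log2 fold change -0.04, interval -0.24 to 0.16, adjusted p = 0.851). SPM was 1.28-fold DCM (1.13 to 1.45, log2 fold change 0.36, adjusted p = 0.0217) and 1.24-fold CK (1.10 to 1.41, adjusted p = 0.0211), past the adjusted p and under the 1.5-fold limit. Without SPM replicate 2 the adjusted p became 0.101 and 0.0859, with log2 fold changes of 0.37 and 0.32. The adjusted p against DCM also ended above the limit without DCM replicate 1 (0.0572), DCM replicate 2 (0.0748) or SPM replicate 1 (0.0588), and that against CK without CK replicate 1 (0.0509), CK replicate 3 (0.0564) or SPM replicate 1 (0.0656). With the GC correction the log2 fold change of F3 in SPM compared to DCM was 0.24 (adjusted p = 0.0967).

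Tfpi (ENSMUSG00000027082, chr2:84432855-84476775, minus strand) encodes tissue factor pathway inhibitor, which endothelial cells make and which shuts off tissue factor with factor VII. Its normalized CPM was 53.7, 69.7 and 62.3 in CK, 69.1, 69.0 and 79.1 in DCM and 94.8, 93.7 and 93.1 in SPM. The SPM libraries lay above the other 6 (mean 93.9 ± 0.841, SD, n = 3), while DCM and CK overlapped. Tfpi was 1.51-fold higher in SPM than in CK (1.3 to 1.75, log2 fold change 0.59, SE 0.09, adjusted p = 0.00327). SPM was 1.3-fold DCM (log2 fold change 0.37, SE 0.07, adjusted p = 0.0134), under the fold limit, and DCM was 1.17-fold CK (adjusted p = 0.176; with the GC correction the log2 fold change was 0.27 and the adjusted p 0.0411). Both SPM values moved with the GC correction: Tfpi transcripts are 39.7% GC, and the corrected log2 fold change in SPM compared to DCM was 0.02 (adjusted p = 0.883) and in SPM compared to CK 0.29 (adjusted p = 0.00966). The call in SPM compared to CK was also lost without CK replicate 1, at 0.50 (adjusted p = 0.00595). Without SPM replicate 2 the value in SPM compared to DCM was 0.38 (adjusted p = 0.0681), and the adjusted p was 0.0524 and 0.062 without DCM replicates 1 and 2.

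Both the starter and its inhibitor had their highest values in SPM. F3 to Tfpi was 0.332, 0.279 and 0.292 in CK, 0.266, 0.246 and 0.235 in DCM and 0.259, 0.242 and 0.235 in SPM. Both diabetic groups lay below CK without overlap, by 0.27 and 0.29 on the log2 scale (exact permutation p = 0.1, 0.185 adjusted). DCM and SPM overlapped and were 0.02 apart. The ratio is not corrected for GC: with the correction the log2 fold changes of F3 and Tfpi were 0.23 and 0.29 in SPM compared to CK, nearly level, and 0.24 and 0.02 in SPM compared to DCM.

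Thbd and Procr are the endothelial side of the protein C system, which switches thrombin from clotting to anticoagulation. Thbd (ENSMUSG00000074743, chr2:148404466-148408188, minus strand, a gene of 1 exon) encodes thrombomodulin, the thrombin receptor on endothelium. Its normalized CPM was 129.0, 102.8 and 109.2 in CK, 92.7, 96.0 and 94.1 in DCM and 81.2, 85.6 and 89.5 in SPM. Every DCM library was below every CK library and every SPM library below every DCM library. The SPM value was 0.749-fold CK (0.654 to 0.859, log2 fold change -0.42, SE 0.09, adjusted p = 0.01), past the adjusted p and short of the fold limit, and it stayed past it without SPM replicate 2 (-0.42, adjusted p = 0.047) and with the GC correction (-0.34, adjusted p = 0.0191). DCM compared to CK gave -0.27 (adjusted p = 0.0663, unadjusted p = 0.00804) and SPM compared to DCM -0.14 (adjusted p = 0.149), neither past the test. The first of these depended on the setting: its adjusted p was 0.0449 by DESeq2, 0.0198 with no low-count filter, 0.0496 in a fit of all 9 libraries, and 0.0317 and 0.034 by limma on log2 of FPKM plus 0.1 and plus 1. In the other settings it was above the limit. Without CK replicate 1, the highest library, the log2 fold change was -0.17 (adjusted p = 0.207). The adjusted p was 0.163, 0.124 and 0.153 without DCM replicates 1, 2 and 3, and 0.0917 with a replicate block.

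The sum of the 13 endothelial markers was also lower in SPM than in CK, without overlap. Of these markers, 10 had negative and 3 positive log2 fold changes there. The log2 ratio of Thbd to their sum was 0.21 lower in DCM and 0.23 lower in SPM than in CK, without overlap, and 0.01 apart between SPM and DCM. Of the 13 markers, 4 were lower and 1 higher past the adjusted p in SPM compared to CK, and 2 of them, Tie1 and Cldn5, were called lower (named after their values were seen). Whether these moved the value of Thbd was not tested.

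Procr (ENSMUSG00000027611, chr2:155751117-155755471, plus strand) encodes the endothelial protein C receptor, which presents protein C to thrombomodulin. It had 63 to 154 counts per library. Normalized CPM ran from 2.65 to 3.24 in CK, 2.13 to 3.87 in DCM, and 2.95 to 4.12 across SPM, and all groups overlapped. Intervals of the log2 fold change were -0.60 to 0.54, -0.23 to 0.88 and -0.17 to 0.74 in DCM compared to CK, SPM compared to DCM and SPM compared to CK, each of which includes a change of 1.5-fold. Thbd to Procr was lower in SPM than in CK by 0.69 on the log2 scale, without overlap (exact permutation p = 0.1, 0.185 adjusted).

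Vwf and Thbd, the endothelial genes for platelet capture and for holding back thrombin, had values on opposite sides of CK in both diabetic groups, although edgeR's test of Thbd on 6 libraries passed the adjusted p in SPM and not in DCM. Vwf to Thbd was 2.05, 2.42 and 2.52 in CK, 5.98, 4.67 and 3.82 in DCM and 4.57, 4.87 and 5.02 in SPM. The ratio was 2.05-fold higher in DCM and 2.08-fold higher in SPM than in CK, again with no overlap (exact permutation p = 0.1 for each, 0.185 adjusted). SPM and DCM were 0.02 apart on the log2 scale. Without DCM replicate 1 the difference between DCM and CK was 0.86 in place of 1.03.

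**Figure D4:**
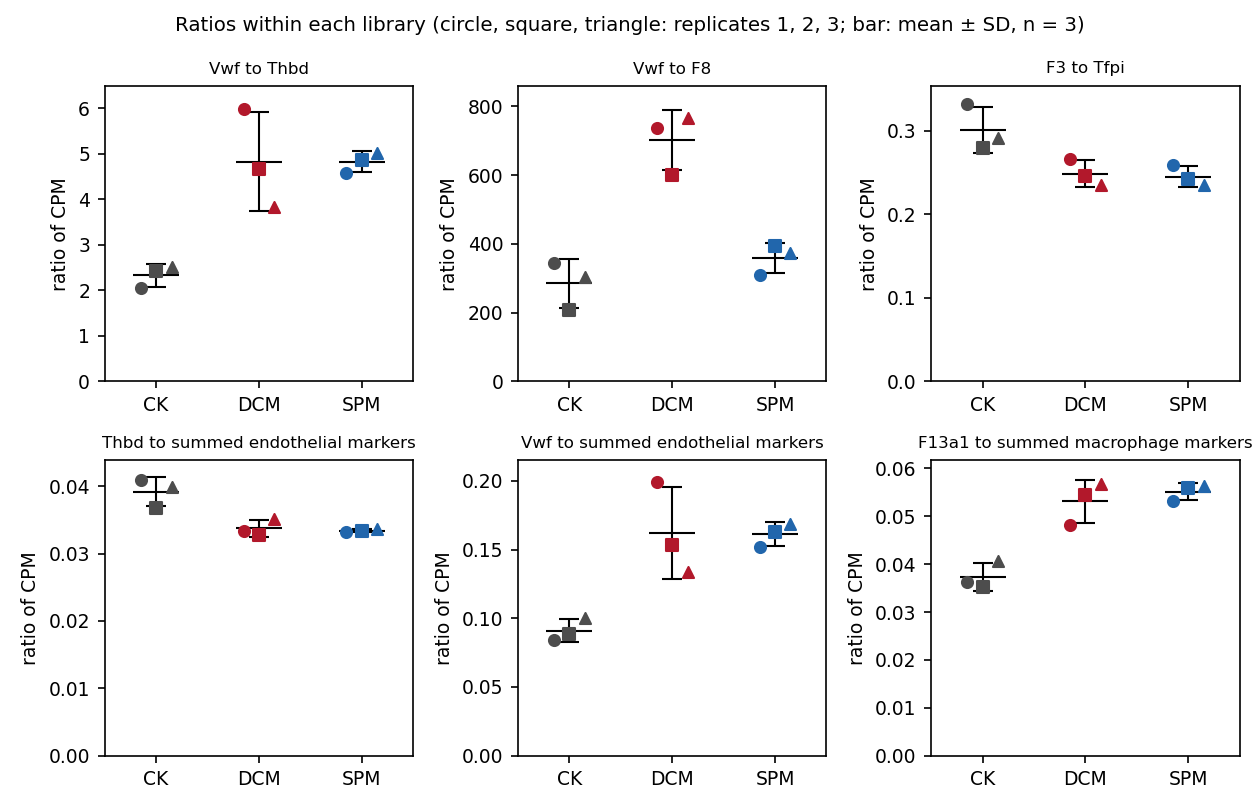
Linear ratios of normalized CPM within each library for 6 pairs, on axes that start at 0, with circle, square and triangle for replicates 1, 2 and 3 and bars for the mean ± SD (n = 3). Vwf to Thbd, Vwf to the endothelial markers and F13a1 to the macrophage markers are higher in every DCM and SPM library than in CK, while Thbd to the endothelial markers and F3 to Tfpi are lower in all of these and Vwf to F8 is highest in the 3 DCM libraries.

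F13a1 (ENSMUSG00000039109, chr13:36867178-37050244, minus strand) encodes the catalytic chain of factor XIII, the transglutaminase that cross-links fibrin in the last step of clotting. Resident macrophages and platelets contain it. Normalized CPM was 40.6, 37.6 and 34.9 in CK and 40.9, 39.3 and 41.1 in DCM. In SPM it was 75.5, 60.3 and 48.0, above the other 6 libraries and with the widest spread of the 3 groups (61.3 ± 13.8, against 37.7 ± 2.86 and 40.4 ± 0.994). F13a1 was 1.52-fold higher in SPM than in DCM (1.24 to 1.86, log2 fold change 0.60, SE 0.13, adjusted p = 0.019) and 1.62-fold higher in SPM than in CK (1.29 to 2.04, log2 fold change 0.70, SE 0.14, adjusted p = 0.00986). DCM and CK overlapped, with a log2 fold change of 0.10 (adjusted p = 0.487).

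The call in SPM compared to DCM sat at its limits. Without SPM replicate 1, the highest library, the log2 fold change was 0.42 (adjusted p = 0.0186). Without SPM replicate 2 it was 0.61 with an adjusted p of 0.0627, and without DCM replicate 1, 2 or 3 the adjusted p was 0.0688, 0.0912 and 0.0575. It held without SPM replicate 3, at 0.74 (adjusted p = 0.00051). The GC correction gave 0.46 (adjusted p = 0.0711). Against CK the value was 0.52 without SPM replicate 1 (adjusted p = 0.0129), 0.71 without SPM replicate 2 (adjusted p = 0.0329) and 0.59 with the GC correction (adjusted p = 0.0198). An antisense gene shares 74 exonic bases with F13a1, and the library kit does not mark strand.

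Macrophage markers were higher with F13a1 in SPM compared to DCM, whereas their sum was lower in DCM than in CK and overlapped between SPM and CK. The 14 markers, led by Lyz2, Csf1r and C1qa, summed to 856.4 to 1121.7 CPM in CK, 722.1 to 849.8 in DCM, and 851.6 to 1422.9 across SPM. Of the 14, 6 were called higher in SPM compared to DCM and all 14 had positive log2 fold changes there, while DESeq2 called 2. In DCM compared to CK 12 of the 14 had negative values (median -0.44), 6 were lower and 1 higher past the adjusted p, and 2 were called lower, Adgre1 and Fcgr1, named after their values were seen. In SPM compared to CK 1 marker was called higher. F13a1 to the macrophage sum, a ratio chosen after seeing the data, was 0.0362, 0.0352 and 0.0407 in CK, 0.0481, 0.0544 and 0.0568 in DCM and 0.0531, 0.0558 and 0.0564 in SPM. SPM and DCM overlapped and were 0.06 apart on the log2 scale, while both were above CK without overlap, by 0.51 and 0.56 (exact permutation p = 0.1, 0.185 adjusted). Monocyte and neutrophil markers, led by S100a9, Csf3r and S100a8, summed to 10.8 to 20.1 CPM in CK, 14.7 to 35.0 in DCM, and 48.6 to 77.4 across SPM. Of these 8 markers, 7 were called higher in SPM compared to DCM (median log2 fold change 1.3). In SPM compared to CK 7 were called higher (median 1.82), and in DCM compared to CK 2 (median 0.79). Beside the ratio above, the part of these cells in the result was not tested.

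Plat and Plau encode the activators that turn plasminogen into plasmin, the enzyme that digests fibrin. Plat (ENSMUSG00000031538, chr8:22757727-22782844, plus strand) is tissue-type plasminogen activator, released by endothelium. Its normalized CPM was 54.2, 46.3 and 44.8 in CK, 55.3, 57.7 and 52.0 in DCM and 42.0, 46.0 and 46.5 in SPM. SPM lay below DCM in all libraries and overlapped CK. It was 0.816-fold DCM (0.729 to 0.912, log2 fold change -0.29, SE 0.07, adjusted p = 0.0263), under the fold limit. With the GC correction this was -0.44 (adjusted p = 0.0302), and without SPM replicate 2 -0.31 (adjusted p = 0.112). The adjusted p was 0.0675, 0.088 and 0.0528 without DCM replicate 1, DCM replicate 2 and SPM replicate 1. DCM compared to CK gave 0.18 (adjusted p = 0.216) and SPM compared to CK -0.12 (adjusted p = 0.333).

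Plau (ENSMUSG00000021822, chr14:20836660-20843385, plus strand) is the urokinase-type activator, which acts at cell surfaces through its receptor Plaur. With 106 to 320 counts per library, its normalized CPM was 9.91, 7.56 and 6.03 in CK, 8.04, 5.72 and 5.01 in DCM and 3.26, 4.37 and 6.22 in SPM. All groups overlapped. The largest difference, SPM compared to CK, was -0.77 on the log2 scale (interval -1.35 to -0.19, adjusted p = 0.0534), just outside the adjusted p limit, and it was called in 7 of 15 alternative settings. Leaving out SPM replicate 3 gave -1.04 (adjusted p = 0.014) and leaving out SPM replicate 1 gave -0.57 (adjusted p = 0.115). Plaur itself was at 0.02, 0.11 and 0.13 in DCM compared to CK, SPM compared to DCM and SPM compared to CK, with no call.

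**Figure D5:**
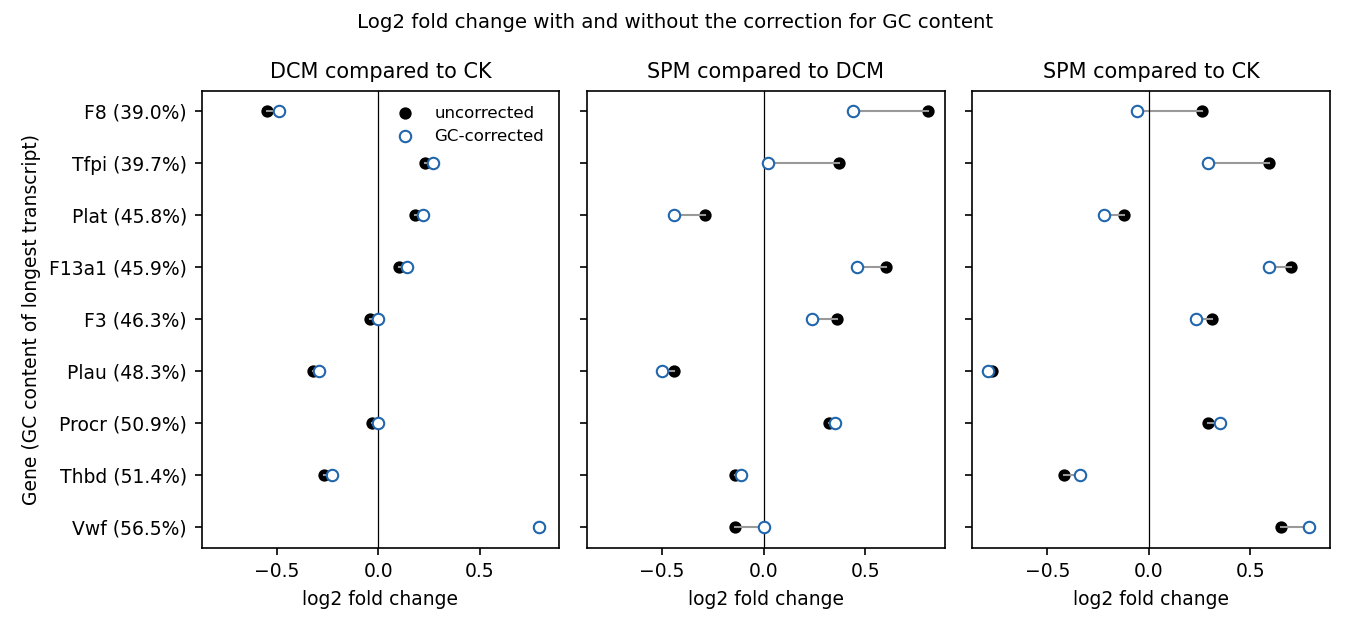
Log2 fold change of each gene before (black) and after (open blue) correction for the GC content of its longest transcript, which is given in percent beside each name, genes ordered from low to high GC. In both SPM comparisons F8 and Tfpi, at the low end, shift left and Vwf, at the high end, shifts right, while in DCM compared to CK the pairs nearly coincide.

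Beyond these 9, 29 further haemostasis genes not made mainly in liver were listed, of which 28 were in the matrix. In DCM compared to CK 26 were tested and 2 were higher and 3 lower past the adjusted p, beside 10.4% of all genes tested. Under the call rule edgeR gave 0 of these and DESeq2 gave 1, F2rl3 (named after its values were seen), with 9 at an unadjusted p below 0.05. For SPM against DCM 25 were tested, and 2 were higher and 1 lower past the adjusted p, beside 16.6% of all genes tested. Of the 25, edgeR called 0, as did DESeq2, with 5 at an unadjusted p below 0.05. For SPM against CK 26 were tested, and 4 were higher and 4 lower past the adjusted p, beside 27.4% of all genes tested. Vkorc1, the enzyme that recycles vitamin K, was called lower there at -1.58 (SE 0.49, adjusted p = 0.0441) on means of 0.517 and 0.171 CPM in CK and SPM. Their medians were -0.03, 0.07 and -0.02, close to those of all genes. Among those past the adjusted p, chosen here after their values were seen, were Anxa2 and S100a10, whose products together bind Plat and plasminogen at the endothelial surface: Anxa2 was at -0.44 (adjusted p = 0.00882) and S100a10 at -0.52 (adjusted p = 0.00294) in DCM compared to CK, and they were at -0.35 (adjusted p = 0.0132) and -0.43 (adjusted p = 0.00506) in SPM compared to CK. Both were lower, while the same list held 2 genes higher past the adjusted p in DCM compared to CK and 4 in SPM compared to CK. The most abundant of the list, Lrp1, P4hb and Gas6, differed by at most 0.16 in any comparison.

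The liver-made coagulation factors gave another picture. The 23 of 24 in the matrix, led by Fgb, Fga and Apoh, summed to 2.21 to 13.3 CPM in CK, 1.22 to 2.44 in DCM, and 85.9, 40.2 and 4.39 in SPM replicates 1 to 3, whereas the 9 genes of heart cells summed to 535.8 to 573.2, 651.7 to 844.0 and 696.8 to 759.0. SPM replicate 3 thus lay inside the range of CK. Apoh had 253, 93 and 15 counts in those 3 libraries. Only 2, 5 and 14 of the 23 passed the low-count filter in the 3 comparisons. All 5 tested in SPM compared to DCM and all 14 in SPM compared to CK were higher in SPM. Apoh had 5, 1 and 2 counts in DCM. A gene near 0 there passes that filter only through its SPM counts, which fixes its direction. SPM compared to DCM called 3 of them, F10, Proz and Apoh, beside 3.59% of all genes tested. SPM compared to CK called F10 alone, beside 9.21%. F10 and Proz were named after their values were seen. DESeq2, which was run without that filter, called 12 and 2.

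Across the 9 libraries the log2 CPM of the 9 genes fell into loosely like and unlike pairs. These correlations describe libraries that share groups, depth and the GC trend, and carry no test. The highest Pearson r was 0.903 for F3 and F13a1, followed by 0.846 for F3 and Tfpi, and the lowest was -0.922 for Thbd and Tfpi. Vwf and F8 had r = -0.112. Among 12608 genes with a mean of at least 1 CPM, the 3 most like Vwf were Ece1 (r = 0.984), 6030408B16Rik (0.956) and H19 (0.946). Those most like F3 were Sh3kbp1 (0.985), Saa3 (0.984) and Atl3 (0.981), those most like Tfpi were Ubxn7 (0.996), Lamp2 (0.989) and Ccdc82 (0.988), and those most like F13a1 were C4b (0.982), Ppfia1 (0.982) and Arpc2 (0.979). Thbd was most like Arhgef7 (0.983), Sdc3 (0.982) and Itpkb (0.974), and Plat most like Med9 (0.976), Scaf1 (0.966) and Dhx34 (0.958). For the 3 genes of lowest level the nearest genes were AU021092 (0.969), Prelp (0.967) and Isg20 (0.964) for Plau, Tbc1d32 (0.918), Cep162 (0.904) and Srp54b (0.902) for Procr, and Slc30a7 (0.958), Pus7 (0.925) and Mad2l1 (0.921) for F8, which was searched against 12609 genes.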

How the data were processed

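RNA from mouse myocardium was enriched for poly(A), depleted of rRNA and sequenced as TruSeq libraries that do not mark strand. The submitters' processing notes name Bowtie 0.12.2, mm8 and mm9 without saying how each was used. The deposited raw count matrix (22851 genes, 22820 named through GENCODE on GRCm38) was tested as it stands. The deposited FPKM values, made by the authors, equal count per length and total within 8.58e-13 and served to compare genes. edgeR 4.0.16 (filterByExpr, TMM, quasi-likelihood) was run on 6 libraries per comparison. Ratios of TMM-scaled CPM within a library were compared by exact permutation. Alternatives were DESeq2 1.42.0, limma 3.58.1 on log2 of FPKM plus 0.1 or 1, RLE scaling, other filters and fold limits, a lowess correction for GC content (span 0.3), a replicate block, 1 fit of all 9 libraries, and each library left out. The fits were tested on simulated data.

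The genes and all lists were chosen with earlier results of these data known. Named were the 9 genes, every called gene of the further haemostasis list, the 3 most abundant of each marker list described, and for each of the 9 the 3 genes of highest Pearson r. Genes outside this rule were named after their values were seen and are marked so. A gene of the further haemostasis list is not reported here.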

Additional observations from a re-analysis of the deposited data

How the results depend on the processing

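The number of the 9 genes called in DCM compared to CK was 1 under all alternatives run, always Vwf (log2 fold change 0.63 to 0.94, highest adjusted p = 0.0221). In SPM compared to DCM the number was 1, and 0 with the replicate block, with limma on FPKM plus 0.1 or plus 1 and with the GC correction, 4 with no fold limit, and 0 to 2 when libraries were left out. In SPM compared to CK it was 3. It was 4, with Plau added, by DESeq2, with no low-count filter and in the fit of all 9 libraries. At a fold limit of 1.3 it was also 4, with Thbd added. The GC correction gave 2 (Vwf and F13a1) and limma at either pseudocount gave 1 (Plau). The number was 5 with no fold limit, and 2 to 4 when libraries were left out. Limma moved the median of all genes by up to 0.09 downward in the comparisons with CK. Over all genes, those called in SPM compared to DCM numbered 521, against 134 with the GC correction, 142 with limma at plus 1, and 280, 73, 56 and 791 without DCM replicate 1, DCM replicate 2, SPM replicate 2 and SPM replicate 3. Those called in DCM compared to CK numbered 625, against 408 with limma at plus 1, and those in SPM compared to CK 1342, against 683 with limma at plus 1 and 771 without SPM replicate 2.

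Of the log2 fold changes, 369 of the alternative values kept direction and side, 19 lost the call, 8 gained it (Plau each time) and 8 turned sign. In DCM compared to CK these were F3 (0.00) and Procr (0.00) with the GC correction, and Procr without CK replicate 3 (0.06), DCM replicate 2 (0.13) or DCM replicate 3 (0.08), within a range of -0.33 to 0.13 over single libraries left out. In SPM compared to DCM they were Vwf with the GC correction (0.00) and without DCM replicate 1 (0.02), within -0.29 to 0.02 over single libraries left out, and in SPM compared to CK F8 with the GC correction (-0.06). Where no value above shows it, the cause was not tested.

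Libraries with the same replicate number did not visibly deviate together: the correlations of their residuals ran from -0.0746 to 0.205, against -0.284 to 0.217 for other pairs. The overlapping ranges show no pairing by number, but so few pairs cannot exclude one. With the replicate block F13a1 in SPM compared to DCM was at 0.58 (adjusted p = 0.005), and the genes called among the 9 numbered 1, 0 and 3. Depth limits F8 and Procr most, with at most 43 and 154 counts in a library.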
